A study of Mus musculus with 483 samples.

Results

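Genes of oxidative phosphorylation were followed in single mouse cells. They were the nuclear genes whose symbols begin with Nduf (a, b, c, s or v), Sdh (a to d), Uqcr, Cox4 to Cox8 or Atp5, and apart from them the 13 protein genes of the mitochondrial genome, of 46078 genes counted. The nuclear symbols covered 84 protein-coding subunit genes (36 of complex I, 4 of complex II, 8 of complex III, 20 of complex IV and 16 of complex V), 9 other protein-coding genes (the complex I assembly factors Ndufaf1 to Ndufaf8, and Atp5s) and 11 processed pseudogenes. The cells had been sorted as CD31+, Kit+ and CD45- from the aorta-gonad-mesonephros region, where blood stem cells arise from endothelium, and each was sequenced by Smart-seq2, a full-length method without molecular identifiers that does not mark the strand. Cells were labelled Ctrl or aDll4-treated, a name that the labels do not explain, and the submitters had placed all of them in 7 clusters. Library numbers fell into 2 blocks and were divided here into 6 runs of 96 numbers. The 4 runs of block 1 held 46, 46, 44 and 40 Ctrl and 46, 46, 39 and 47 treated cells, and the 2 runs of block 2 held 37 and 26 Ctrl and 30 and 36 treated cells. The labels name neither animal nor culture nor genotype, strain or embryonic age, so each treatment was 1 sample, no difference was tested, and the spread given is that between runs or cells.

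Depth ran from 123097 to 2870618 reads on genes in a cell, with a median of 900286 in Ctrl and 869802 in treated cells. The 12 endothelial markers, the vascular genes used to check the CD31 sort, summed to between 5639 and 9065 reads per 1000000 (CPM) in clusters 1 to 3 and to 532 CPM or less in clusters 4 to 7. The 12 hematopoietic markers summed to 1570 CPM in cluster 6 and 1813 CPM in cluster 7, and to at most 215.4 CPM in the other clusters. None of the hematopoietic markers was at 0 in cluster 6, and Ptprc, the gene of the CD45 antigen, and Cd53 were at 0 in cluster 7. Mesenchyme and smooth muscle markers summed to 16037 CPM in cluster 5 and 1285 CPM in cluster 4. In block 1 none of the treated cells was called Xist-positive and most were called Y-positive, whereas in block 2 61 of 66 treated cells were called Xist-positive and 0 Y-positive. Ctrl cells of both kinds were present in both blocks. The sex of the cells and the block therefore cannot be told apart among treated cells.

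Oxidative phosphorylation passes electrons from NADH and succinate through complexes I to IV to oxygen and uses the resulting proton gradient to drive ATP synthase, complex V. Complexes I, III, IV and V join subunits from both genomes, whereas complex II is wholly nuclear. Nuclear subunits are translated in the cytosol and imported, and the mitochondrial genes are transcribed as long joint precursors from a small circular genome.

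Reads of several mitochondrial genes cannot be placed by sequence alone, because the nuclear genome holds near-identical copies of them. On mm10 chromosome 1, between 24611535 and 24616197 on the minus strand, a row of pseudogenes matched the mitochondrial genes at 99.7% identity or more: Gm28661 matched mt-Co2 without a difference over 681 bases, Gm10925 matched mt-Atp6 over 678, and Gm28437 matched mt-Co3 over 783. The stretches below are shown because a read from such a stretch differs between the 2 places at 1 base or at none. The capital marks the base that differs, positions are counted from 1 at the first base of the mitochondrial gene, and the differences are A1066T (mt-Co1 to Gm29216) and T3C (mt-Nd3 to Gm28438).
mt-Co1: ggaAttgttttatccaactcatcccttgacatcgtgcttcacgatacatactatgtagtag
Gm29216: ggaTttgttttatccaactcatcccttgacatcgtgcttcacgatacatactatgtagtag
mt-Nd3: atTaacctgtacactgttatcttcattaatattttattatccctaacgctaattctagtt
Gm28438: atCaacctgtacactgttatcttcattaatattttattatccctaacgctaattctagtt

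The 13 mitochondrial genes fell into a high and a low group that followed these copies in part. Cytochrome b (mt-Cytb), the mitochondrial subunit of complex III, stood at 5021 CPM per kb of transcript, and mt-Co1, the catalytic subunit of complex IV, stood at 4530. The complex I subunits mt-Nd1, mt-Nd5, mt-Nd4, mt-Nd2 and mt-Nd6 followed at 4067, 986, 895, 610 and 333 CPM per kb. The remaining 6 genes lay between 3.07 (mt-Nd4l) and 44.4 CPM per kb (mt-Atp6), although mt-Co2 and mt-Co3 encode core subunits of the same complex as mt-Co1. Of those 6, 5 had 98.99% to 99.9% of their bases in a copy of at least 99% identity. mt-Atp8 was an exception at 10.1 CPM per kb with 21.1% of its bases covered. mt-Nd4 had 63.6% covered and mt-Co1 31.3%, and the other 5 of the high group had none. The copies were counted as genes of their own, with Gm10925 at 22.8 CPM beside 30.3 CPM for mt-Atp6 and Gm28437 at 15.2 CPM beside 14.3 for mt-Co3. How the authors' counting treated reads that match both places is not given in the sources used here, and its part in the low group was not tested. The threshold of 99% was chosen after values had been seen. mt-Nd5 and mt-Nd6 lie side by side on opposite strands. Without strand their reads at the border cannot be told apart. Across cells their log2(CPM + 1) values correlated at Pearson 0.80. Other pairs were also high, with mt-Nd4 and mt-Cytb at 0.83 and mt-Nd1 and mt-Cytb at 0.78. With the rest of the high group, however, mt-Nd6 stood at only 0.52 to 0.58 and mt-Nd5 at 0.58 to 0.67. The part of reads at the border in this was not tested. The lowest pair of the high group, mt-Nd2 and mt-Co1, stood at 0.40.

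**Figure D1:**
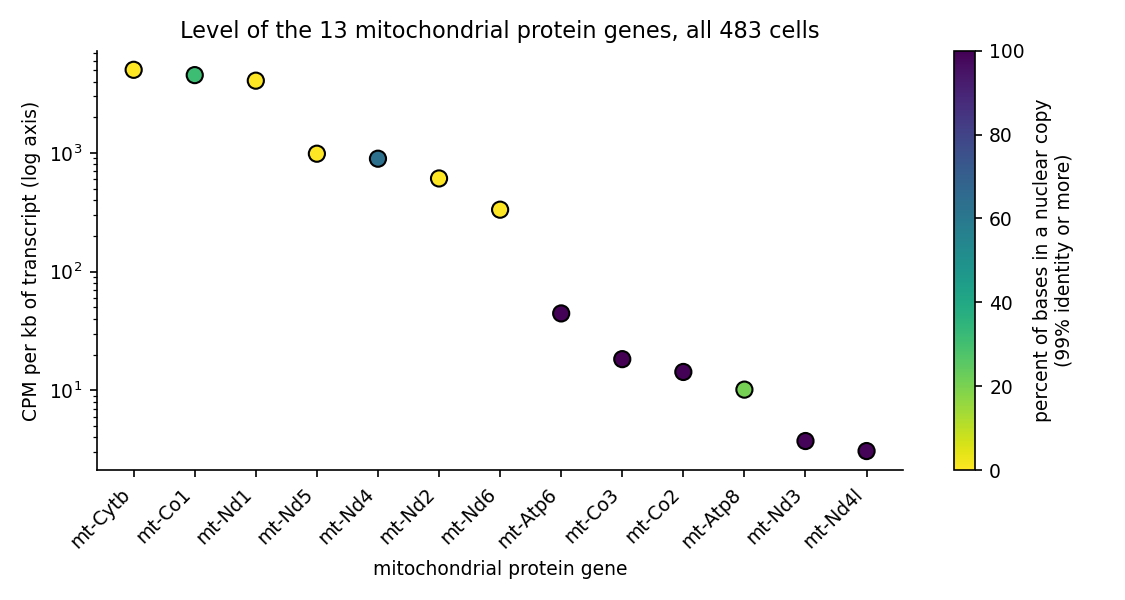
Points give the level of each of the 13 mitochondrial protein genes over all cells, in CPM per kb of transcript on a log axis, ordered from high to low, and the colour gives the percent of the gene's bases that lie in a nuclear copy of at least 99% identity. Of the 6 genes under 50 CPM per kb, 5 are almost wholly covered and mt-Atp8 is not.

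Nuclear subunit genes took 1.46% of all reads and the mitochondrial protein genes 2.05%, beside 6.13% for the 2 mitochondrial ribosomal RNAs. A gene was taken as measured from 5% of cells with a read, a bar that 15204 genes reached. Of the 84 subunit genes 78 reached it, and 70 were read in 90% of cells or more. The 6 others were all complex IV isoforms. Cox8b and Cox8c, alternatives to Cox8a, had 0 reads in all cells. Cox7b2 had 5 reads in 1 cell, and Cox6a2, Cox7a1 and Ndufa4l2 were read in 4, 22 and 23 cells.

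Levels between subunits are compared per kb of a single transcript taken for each gene, so that ranks depend on the transcript taken. The median over the measured subunits was 117.8 CPM per kb in complex I, 120.98 in complex II, 168.3 in complex III, 174.5 in complex IV and 226.8 in complex V. Atp5b, the catalytic beta subunit of ATP synthase, was the highest at 1340 CPM per kb, and Cox4i1, a structural subunit of complex IV, followed at 902. In complex I the range ran from 7.49 CPM per kb for Ndufb4 to 301 for Ndufb9, both accessory subunits. Sdhb, the iron-sulfur subunit of succinate dehydrogenase, had the most reads per kb in complex II (173.3), and the membrane anchor Sdhc the fewest (30.9). In complex III the hinge protein gene Uqcrh led at 278 CPM per kb and Uqcrq was lowest at 76.7. Uqcrq had 116.7 CPM over a transcript of 1521 bases, and without division by length it lay above Uqcrb, at 45.2 CPM. Some nuclear subunits have processed copies too, and the part of these in the subunits' levels was not tested. The 5 subunits with at least 50% of the transcript in a copy had a median of 27.998 CPM per kb, against 127.5 for the other 73, and across the 78 genes level and covered share had a Spearman correlation of -0.49, a description over genes. Among the 5 was Atp5g2, at 3.49 CPM per kb with 88.2% covered. Atp5g2 encodes the same mature c subunit as Atp5g1 and Atp5g3, of which Atp5g3 stood at 503 CPM per kb. Atp5g1 was also low per kb, with 16.5 CPM over a transcript of 4715 bases, of which 10.2% was covered. Its level per kb and its covered share are both divided by this length, so both depend on the transcript taken. Matches of at least 97% identity to Atp5g1 lay in 13 other genes, so its low share does not set it apart from the copied subunits.

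Tissue isoforms of complex IV were strongly uneven. The ubiquitous Cox4i1 had 690 CPM over all cells and Cox4i2, an isoform known from lung and from oxygen sensing, 1.77 CPM. Cox6b1 had 211.7 CPM and its testis isoform Cox6b2 6.26 CPM. Cox6a1 had 189.8 CPM, whereas the heart and muscle isoform Cox6a2 had 0.215 CPM. Cox7a2 had 124.9 CPM and the muscle isoform Cox7a1 0.296 CPM. Ndufa4, a complex IV subunit despite its name, had 187.2 CPM, and Ndufa4l2, a hypoxia-responsive paralog, 1.001 CPM.

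RefSeq promoter windows on GRCm38.p6, from 250 bases before to 50 bases after the start, were found for 68 of the 84 subunit genes, in 73 windows. Nuclear respiratory factor 1 (NRF1), ETS factors such as GABP, and YY1 are known regulators of this gene class, so their core letters were searched on both strands. The NRF1 core, GCGC and TGCGC with any base between them, occurred in 24.7% of the members' windows, in 4.60% of all 32851 windows and in 10.2% of the windows of measured protein-coding genes. The ETS core CCGGAAG occurred in 21.9%, 8.86% and 17.8%, and the YY1 core AAGATGGC in 13.7%, 2.75% and 4.51%. The CCAAT box, at 41.1% of the members' windows, was at 37.9% in those of measured protein-coding genes. The E-box CACGTG was at 9.59% and 9.76% in the same windows. The estrogen-related receptor core TCAAGGTCA, held by only 2 members, was at 2.74% and 0.235%. No matches of the first 3 motifs overlapped each other in a member's window. The stretches of Sdhd and Sdha, of complex II, and of Atp5h, of complex V, are shown because each holds 2 or more matches in the 150 bases before the start, and Sdhd was among the subunits that varied most between clusters. Capitals mark NRF1 and ETS matches on either strand, and the stretches run 5′ to 3′ on the gene's strand, which is minus for all 3, at chr9:50603850-50603999, chr13:74350241-74350390 and chr11:115419920-115420069.
Sdhd: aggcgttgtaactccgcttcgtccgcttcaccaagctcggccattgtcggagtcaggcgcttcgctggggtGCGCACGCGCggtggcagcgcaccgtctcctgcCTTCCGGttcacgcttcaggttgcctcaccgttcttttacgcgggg
Sdha: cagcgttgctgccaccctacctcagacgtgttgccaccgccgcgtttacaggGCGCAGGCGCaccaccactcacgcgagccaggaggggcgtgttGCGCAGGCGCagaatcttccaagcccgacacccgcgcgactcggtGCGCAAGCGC
Atp5h: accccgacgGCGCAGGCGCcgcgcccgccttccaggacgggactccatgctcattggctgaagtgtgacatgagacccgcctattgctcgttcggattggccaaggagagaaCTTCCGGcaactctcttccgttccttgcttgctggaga

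The YY1 core lay elsewhere. Taking 1 window per gene, it was matched in 9 members, in 8 of them on the gene's strand between 22 and 38 bases after the start, and in all of those 8 the ATG within the match was the annotated start codon in GENCODE M21. Of 22 NRF1 matches 17 lay before the start, and of 18 ETS matches 12. Stretches of 30 bases around the YY1 match are shown for 3 complex I genes described below, Ndufs6 (chr13:73328433-73328462, minus strand), Ndufs4 (chr13:114388045-114388074, minus strand) and Ndufa3 (chr7:3617388-3617417, plus strand). Capitals mark the match.
Ndufs6: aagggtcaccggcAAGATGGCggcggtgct
Ndufs4: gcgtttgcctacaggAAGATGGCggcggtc
Ndufa3: caagaacAAGATGGCcgggagtaagtacag
The 17 measured members with an NRF1 match had a median log2 ratio of treated over Ctrl of 0.11 and the 48 without it 0.07, and the medians of their levels were 123.8 and 123.7 CPM per kb. In cluster 6 over cluster 1, described below, the medians were 0.87 with and 0.71 without an NRF1 match, 0.67 and 0.74 for ETS, and 0.71 and 0.72 for YY1. These letters describe a window and were not measured as bound sites.

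Across the submitters' clusters the nuclear set varied more than the mitochondrial set. Summed over cells, nuclear subunits took 1.27%, 1.39%, 1.70%, 1.57%, 1.33%, 2.11% and 1.94% of reads in clusters 1 to 7. The mitochondrial genes took 2.00%, 2.12%, 2.29%, 2.17%, 1.67%, 1.89% and 1.92%. Clusters 6 and 7, which carried the hematopoietic markers, were highest in nuclear share, and their mitochondrial share was near that of cluster 1. Reads of nuclear subunits per mitochondrial read were accordingly 1.12 in cluster 6 and 1.01 in cluster 7, and between 0.63 and 0.80 in the other 5. The nuclear share of cluster 6 was 2.16% in its 14 Ctrl and 2.08% in its 19 treated cells, and 2.12% and 2.09% in blocks 1 and 2. In cluster 1 it was 1.27% in both treatments and 1.24% and 1.36% in the blocks. The nuclear shares of clusters 1 and 6 thus did not overlap between treatments or blocks. The order of the mitochondrial shares turned with the cells taken. In Ctrl cells it was 2.03% in cluster 1, 2.21% in cluster 6 and 2.10% in cluster 7, and in treated cells 1.96%, 1.71% and 1.80%. In block 1 it was 2.12%, 2.02% and 1.85%, and in block 2 1.59%, 1.68% and 2.03%, so that clusters 6 and 7 lay above cluster 1 in Ctrl cells and in block 2 and below it in the others. The clusters were built by the submitters on the same counts, so that these are descriptions.

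**Figure D2:**
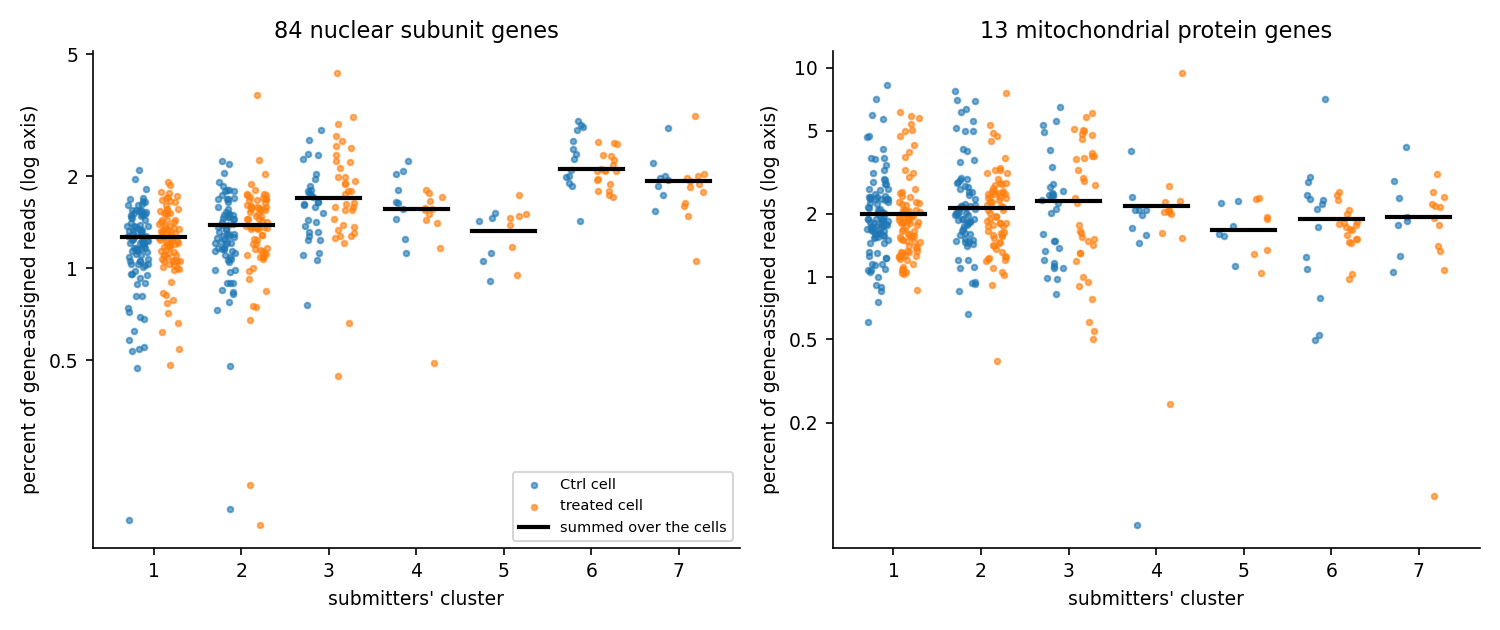
Each point is 1 cell, placed by the submitters' cluster on the horizontal axis and coloured by treatment, and the vertical log axes give its percent of reads from the 84 nuclear subunit genes (left) and from the 13 mitochondrial protein genes (right). Black lines give the share summed over the cells, 2.11% in cluster 6 against 1.27% in cluster 1 for the nuclear set, and 1.89% against 2.00% for the mitochondrial set.

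Nearly all nuclear subunits took part in the difference between clusters 6 and 1. Ratios are of summed CPM with 1 CPM added to both, on the log2 scale, and a ratio past 1.2-fold is one beyond 0.26 either way. In cluster 6, 76 of 78 measured subunits were higher than in cluster 1 and 73 were past 1.2-fold higher, where 37.8% of all 15204 measured genes were. The median of the 78 log2 ratios was 0.73, against -0.03 for all measured genes. In cluster 7, 67 were past 1.2-fold higher, against 33.7% of all genes, with a median of 0.70. Cluster 3, the least complex cells with a median of 5937 genes, had 62 past it, against 34.7% of all genes, and a median of 0.70. Cluster 4 had 47 (background 41.5%, median 0.31), cluster 2 had 21 (background 21.5%, median 0.17) and cluster 5 had 14 (background 34.6%, median 0.08). Of the 6 clusters, cluster 5 alone had a smaller share of subunits past the fold than of all genes. In cluster 6 all complexes were high, with median log2 ratios over cluster 1 of 0.69 for complex I, 0.40 for complex II, 0.90 for complex III, 0.78 for complex IV and 0.76 for complex V. Within Ctrl cells alone the median of the 78 in cluster 6 was 0.82, and within treated cells 0.65. Cluster 4 differed by treatment, at 0.59 in its 10 Ctrl cells and 0.13 in its 12 treated cells.

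**Figure D3:**
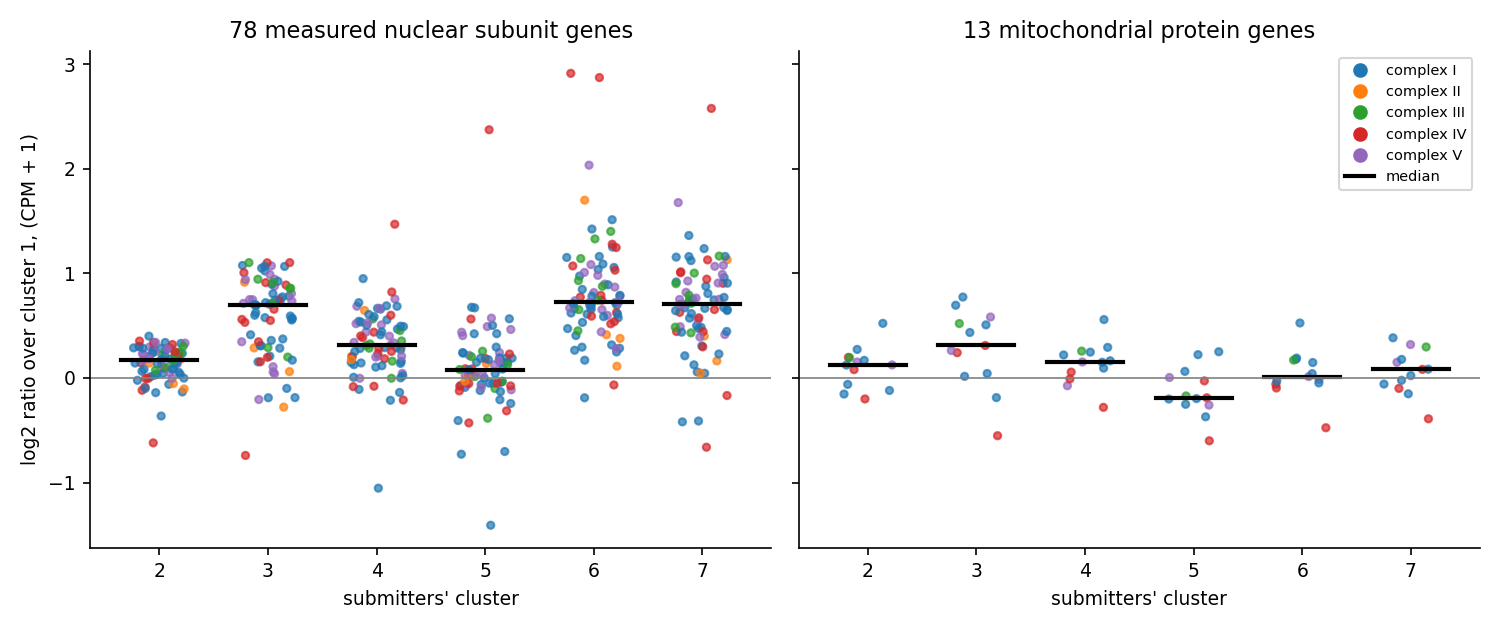
Each point is a gene, coloured by respiratory complex, and its height is the log2 ratio of its CPM + 1 in clusters 2 to 7 over cluster 1, for the 78 measured nuclear subunits (left) and the 13 mitochondrial genes (right). Black lines are medians, 0.73 for nuclear subunits in cluster 6 and 0.01 for mitochondrial genes there.

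The subunits that ranged most between clusters were from several complexes. Sdhd, the cytochrome b anchor of succinate dehydrogenase, stood at 346 CPM in cluster 6 and 233.1 in cluster 7, against 105.9 in cluster 1, and was 291 and 442 CPM in blocks 1 and 2 of cluster 6 against 92.9 and 149.4 in those of cluster 1. Sdhc, the other anchor of the same enzyme, stood at 106.1 CPM in cluster 6 and 98.04 in cluster 1, with 101.1 and 89.2 in block 1 and the reverse order in block 2, 114.7 and 127.5. Sdha, the flavoprotein with the 3 NRF1 matches shown above, stood at 444 and 341 CPM. Its difference lay in block 1, at 472 and 324 CPM, and not in block 2, at 396 and 398 CPM. Ndufb10, a membrane-arm subunit of complex I, was 189.9 CPM in cluster 6 and 70.2 in cluster 1. Ndufa3, a small accessory subunit, was highest in cluster 7 at 92.9 CPM, with 44.5 CPM in cluster 6 and 35.5 in cluster 1. In block 2 it was 95.9 CPM in cluster 7, 35.7 in cluster 6 and 38.9 in cluster 1. Ndufa8 was lowest in clusters 4 and 5, at 52.3 and 40.7 CPM, against 109.6 in cluster 1. Uqcrq, of complex III, was 213.3 CPM in cluster 6, 180.4 in cluster 7 and 96.1 in cluster 1. Cox7a2l, a supercomplex factor, was not higher in cluster 6, at 98.5 against 103.3 CPM in cluster 1.

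Atp5g1 was the subunit gene of ATP synthase that varied most. It stood at 44.9 CPM in cluster 6 and 34.8 in cluster 7, between 12.02 and 22.6 in clusters 2 to 5 and at 10.2 in cluster 1. Averaged over cells, log2(CPM + 1) was 5.14 in the 33 cells of cluster 6, with an SD of 1.25, and 2.83 in cluster 1, with an SD of 1.51, so that the spreads of single cells met. Atp5g3, for the same protein, was 559 CPM in cluster 6 and 283 in cluster 1. Atp5g2 stayed between 1.86 and 3.90 CPM in all 7.

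Of the low isoforms of complex IV, Cox6b2 was spread over many cells and Cox4i2 over few. Cox6b2 stood at 28.9 CPM in cluster 6, where 29 of 33 cells had a read, and at 22.7 CPM in cluster 7, where 16 of 20 did. It was at 2.98 CPM in cluster 1, with reads in 19.7% of cells, and at 1.59 in cluster 2, with reads in 13.1%. Cox6b1 was still 258 CPM in cluster 6. Cox4i2 stood at 11.7 CPM in cluster 6, from 7 of 33 cells, and at 7.99 CPM in cluster 5, from 5 of 13 cells, and at 1.27 CPM or less elsewhere. A single cell of cluster 6 held 19.4% of all its 784 reads. All 95 reads of Cox6a2 came from 4 cells of cluster 6.

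The mitochondrial genes differed less as a set between clusters. Their median log2 ratio over cluster 1 was 0.12, 0.31, 0.15, -0.19, 0.01 and 0.08 in clusters 2 to 7. In cluster 3 the complex I genes mt-Nd1 and mt-Nd4 and mt-Cytb were at their highest, at 5345, 1767 and 7384 CPM, against 3127, 1091 and 5148 in cluster 1. mt-Co1 ran the other way, at 8004 CPM in cluster 1, 6965 in cluster 2 and 5459 in cluster 3. Reads of mt-Co1 per read of mt-Cytb were 1.55 in cluster 1, 1.18 in cluster 2 and 0.74 in cluster 3, and lay between 0.97 and 1.16 in clusters 4 to 7. The order of clusters 1 to 3 was the same in both blocks, 1.499, 1.18 and 0.77 in block 1 and 1.81, 1.197 and 0.71 in block 2. It was also the same in both treatments, 1.60, 1.22 and 0.80 in Ctrl and 1.499, 1.14 and 0.68 in treated cells. The smaller clusters were less steady. Cluster 6 stood at 0.68 in Ctrl and 1.26 in treated cells, though at 0.99 and 1.01 in blocks 1 and 2. Cluster 7 stood at 1.30 and 0.65 in the blocks, and cluster 4 at 1.35 and 0.95. By summed reads cluster 6 thus lay below cluster 3 in Ctrl cells, and cluster 7 lay below it in block 2. By single cells cluster 6 lay above cluster 3 in Ctrl. There mt-Co1 had more reads than mt-Cytb in 57.1% of 14 cells of cluster 6 and in 41.9% of 31 cells of cluster 3. In block 2 it did so in 28.6% of cells of cluster 7 and 41.2% of cluster 3. In single cells mt-Co1 had more reads than mt-Cytb in 92.3% of cells of cluster 1, in 69.7% of cluster 2 and in 37.3% of cluster 3. Across all cells log2 levels of the 2 genes correlated at Pearson 0.64. The part of the copy-covered 31.3% of mt-Co1 in the ratio of mt-Co1 to mt-Cytb was not tested. Cluster 3 also had the lowest median depth, 669599 reads.

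Between treatments the nuclear subunits differed little and mostly one way. They took 1.43% of reads in Ctrl and 1.49% in treated cells. Of the 78 measured subunits 58 were higher in treated cells, where 52.2% of all measured genes were, with a median log2 ratio of 0.08 against 0.01 for all genes. Past 1.2-fold, 3 were higher and 0 lower, where 15.4% of all genes were higher and 16.9% lower, so that fewer members passed the fold than genes in general. In the 6 runs the median of the 78 was 0.33, -0.05, 0.20, 0.03, 0.00 and 0.07. The runs lay on both sides of 0, with runs 1 and 3 highest. By complex, the medians were 0.07 for complex I, 0.00 for complex II, 0.08 for complex III, 0.11 for complex IV and 0.12 for complex V. In summed counts, fewer cells with a gene and less RNA per cell cannot be told apart.

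**Figure D4:**
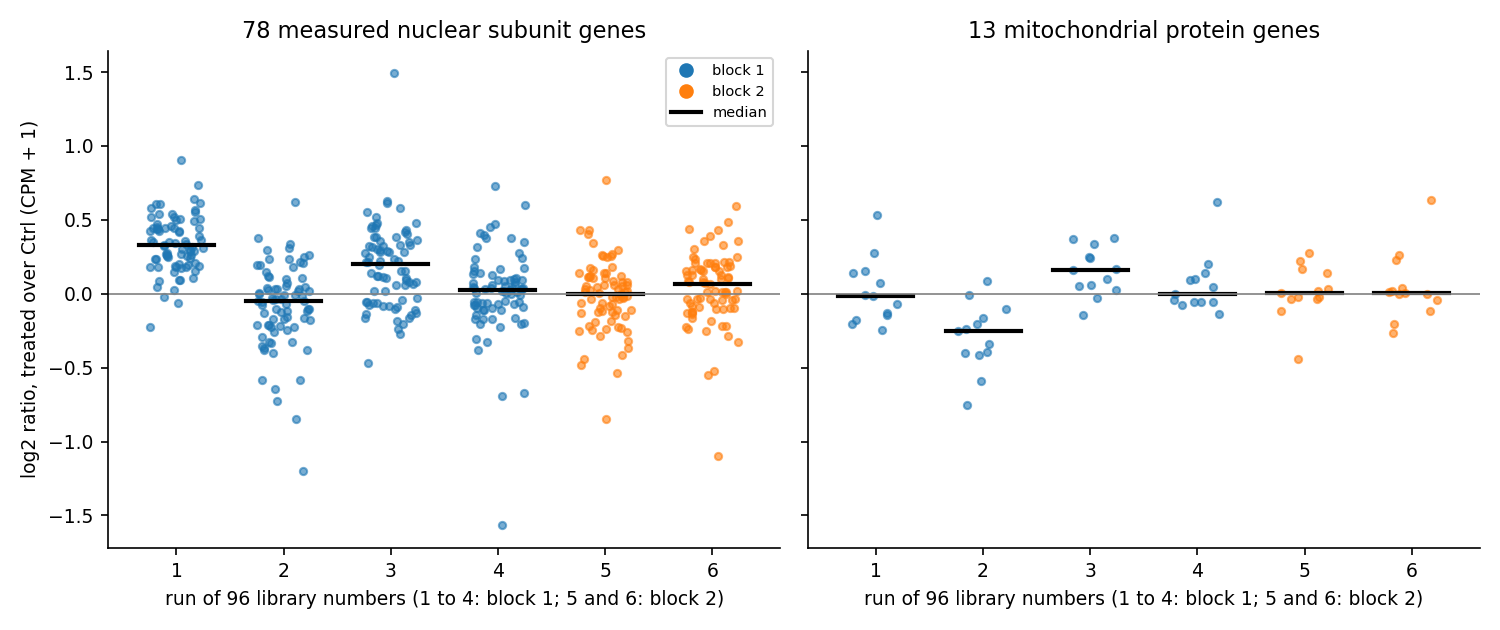
Each point is a gene and its height the log2 ratio of CPM + 1, treated over Ctrl, within each of the 6 runs of library numbers, for nuclear subunits (left) and mitochondrial genes (right). Black lines are medians, which for nuclear subunits are 0.33 in run 1 and between -0.05 and 0.20 in the other 5.

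The 3 subunits past 1.2-fold were all of complex I. Ndufs6, which carries a zinc site needed for assembly, was at 58.1 CPM in Ctrl (exact Poisson 95% interval 57.1 to 59.1, counting error only) and 70.7 in treated cells (69.6 to 71.8). Its log2 ratio was 0.28, and 0.26, 0.15, 0.58, 0.28, 0.34 and -0.06 in the runs. Ndufb10 was at 81.9 and 98.9 CPM, with a log2 ratio of 0.27 and run ratios from -0.13 to 0.45. Ndufa8 was at 99.1 and 119.4 CPM with a log2 ratio of 0.27, and was higher in treated cells in 6 of 6 runs, by 0.10 to 0.37. The means of log2(CPM + 1) for Ndufb10 were 5.28 ± 2.40 (SD over Ctrl cells) and 5.84 ± 2.08 (SD over treated cells), so that single cells overlapped almost wholly. For 22 subunits, all higher in treated cells, the mean of log2(CPM + 1) differed the same way in both blocks and in at least 5 of 6 runs, with the same direction in summed CPM, where 14.3% of all measured genes did so upward and 4.55% downward. Those with the largest differences beside the 3 above were Ndufs4, Atp5h, Atp5mpl, Cox6b1 and Cox7a2. Atp5h, a stalk subunit of ATP synthase, was at 56.3 CPM in Ctrl and 65.8 in treated cells. Cox6b1, which joins the monomers of the complex IV dimer, was at 195.8 and 227.99 CPM. Ndufs4, a late-joining accessory subunit, stood at 134.99 and 137.97 CPM, a log2 ratio of 0.03 with 3 of 6 runs higher, while its mean log2 was 6.24 in Ctrl and 6.65 in treated cells. All 6 runs were higher by summed CPM for 5 subunits, Ndufa8, Ndufb8, Cox6a1, Atp5k and Atp5g3, and lower for 0, where 2.33% and 1.97% of all genes were. Atp5g3 was at 340 CPM in Ctrl and 388 in treated cells, with run ratios from 0.02 to 0.39. Of complex II, Sdhb had 211.7 CPM in Ctrl and 183.7 in treated cells, a log2 ratio of -0.20, with 5 of 6 runs lower. Sdhd was at 144.04 and 146.8 CPM and Sdha at 362 and 356.

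Short transcripts carried more of this difference. The 50 subunits with a transcript under 1000 bases had a median log2 ratio of 0.11 and the 28 longer ones 0.03, and ratio and length had a Spearman correlation of -0.32 across the 78. Over all measured genes the medians were 0.05 and -0.0028, with a correlation of -0.11. In runs 1 and 3, the 2 with the highest medians, the correlation among subunits was -0.32 and -0.46. In run 2 it had the opposite sign, 0.11, and in runs 4 to 6 it lay between -0.17 and -0.15. In cluster 3 over cluster 1 it was -0.42, and the median was 0.73 for short and 0.34 for longer subunits. In cluster 6 it was -0.13, with medians of 0.76 and 0.68. The part of transcript length in these ratios was not tested.

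Markers of other cell types also differed between the treatments. Beside their counts, 52.2% of all measured genes were higher in treated cells and 47.8% lower, with 51.2% higher in block 1 and 52.4% in block 2. Of the 12 endothelial markers 10 were lower in treated cells, with a sum of 7065 CPM in Ctrl and 6070 in treated cells. Of 8 measured hematopoietic markers 7 were higher (sums over the list of 268 and 331 CPM), with 7 higher and a median log2 ratio of 1.04 in block 1 and 5 higher and a median of 0.07 in block 2. All 7 megakaryocyte markers were higher in both blocks (368 and 856 CPM). Of 9 measured erythroid markers 8 were higher in both blocks (60.8 and 324 CPM). A single treated cell of cluster 2 held 30175 CPM of erythroid markers, and without it the treated sum was 157.6 CPM. Without the highest treated cell, of cluster 7, the megakaryocyte sum was 543 CPM. Mesenchyme and smooth muscle markers summed to 632 CPM in Ctrl and 765 in treated cells, with log2 ratios whose median was -0.67 in block 1 but 1.64 in block 2, and the Ctrl sum was 392 CPM without its highest cell. None of the markers on these 5 lists was at 0 in either treatment. Epithelial markers, a list of 8 with 3 measured, summed to 44.7 CPM in Ctrl and 53.97 in treated cells. The median log2 ratio of the 3 was 0.14 in block 1 and 1.73 in block 2, and Upk3b was at 0 in Ctrl. The part of all these lists in the subunits' ratios was not tested. Clusters 6 and 7, high in nuclear subunits, held 14 and 8 Ctrl and 19 and 12 treated cells. With both treatments weighted to the same cluster shares the median log2 ratio of the subunits was 0.05, and in clusters 1 to 3 alone it was 0.09. Within cluster 1 it was 0.03, with 45 of 78 higher where 48.1% of all genes were, and in cluster 2 it was 0.08. In cluster 3 it was 0.28, with 42 past 1.2-fold higher where 35.2% of all genes were. In cluster 4, of 22 cells, 63 of 78 subunits were lower in treated cells, where 48.9% of all genes were, with a median of -0.38. In cluster 6 it was -0.09 and in cluster 7 -0.01. Of the mitochondrial genes 10 of 13 were lower in treated cells of cluster 6, where 44.5% of all genes were, with a median of -0.49. Their share there was 2.81% in 8 Ctrl and 1.66% in 14 treated cells of block 1, and 1.49% in 6 Ctrl and 1.83% in 5 treated cells of block 2, so that the blocks ran opposite ways. The highest of those 8 Ctrl cells stood at 7.04%. Medians over cells were 2.27% in Ctrl and 1.71% in treated cells of block 1, and 1.16% and 1.79% in block 2.

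The mitochondrial protein genes took 2.09% of reads in Ctrl and 2.01% in treated cells, a log2 ratio of -0.06 for their sum. The sum was -0.10 in block 1 and 0.07 in block 2, and the runs ranged from -0.27 to 0.12. Of the 13 genes 9 were lower in treated cells, where 47.8% of all genes were, and 4 higher, and none was past 1.2-fold. mt-Co1 stood at 7228 CPM in Ctrl and 6765 in treated cells, mt-Cytb at 5848 and 5638, and mt-Nd1 at 3963 and 3819. mt-Nd6, the gene on the other strand, was the single mitochondrial gene higher in all 6 runs, at 162.9 and 182.6 CPM with run ratios from 0.01 to 0.37. Its neighbour mt-Nd5 stood at 1777 and 1819 CPM. Reads of nuclear subunits per mitochondrial read were 0.69 in Ctrl and 0.74 in treated cells.

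The block of library numbers moved the shares of both sets more than treatment did. Nuclear subunits took 1.41% of reads in block 1 and 1.57% in block 2, and the mitochondrial genes 2.14% and 1.88%. The ratio of nuclear to mitochondrial reads was 0.66 in block 1 and 0.84 in block 2. In the 4 runs of block 1 it was 0.69, 0.63, 0.67 and 0.67 and in the 2 of block 2 it was 0.83 and 0.85, so that the blocks did not overlap. Of the 13 mitochondrial genes 11 were lower in block 2, where 42.9% of all genes were, with a median log2 ratio of -0.34, and 7 were past 1.2-fold lower, where 18.7% of all genes were. Of the 78 nuclear subunits 55 were higher in block 2, where 57.1% of all genes were, with a median of 0.07 against 0.05 for all genes. Within clusters the ratio was 0.59 and 0.85 in blocks 1 and 2 of cluster 1, 0.63 and 0.71 in cluster 2, and 0.64 and 0.85 in cluster 3. Clusters 6 and 7 were at 1.05 and 1.25 and at 0.96 and 1.06, and cluster 4, with 9 and 13 cells, ran the other way at 0.82 and 0.67. Mitochondrial ribosomal RNA was at 7.03% of reads in block 1 and 4.23% in block 2, and the median depth was 828768 and 1086980 reads. The labels do not say what a block is, and the parts of depth and sex in this difference were not tested.

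**Figure D5:**
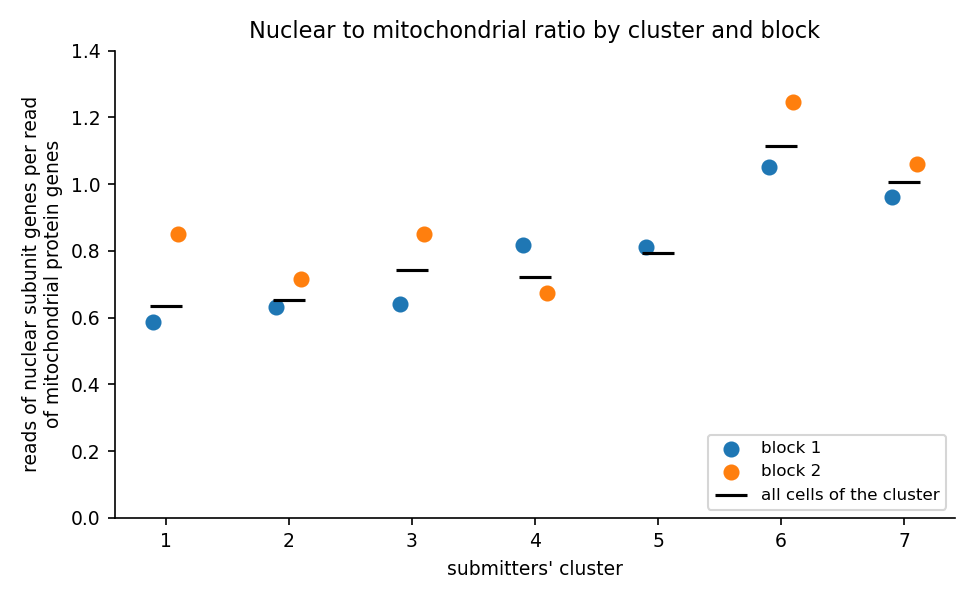
Points give reads of nuclear subunit genes per read of mitochondrial protein genes, summed over the cells of each cluster and block with at least 5 cells, and dashes give each cluster as a whole. Block 2 lies above block 1 in clusters 1, 2, 3, 6 and 7 and below it in cluster 4, and clusters 6 and 7 lie above all others in both blocks.

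Over all cells, but not in every cluster, the nuclear and mitochondrial shares ran weakly against each other. The log2 shares had a Pearson correlation of -0.34 over all cells, which share the total by which both are divided. With the nuclear share taken of reads outside the mitochondrial genome it was -0.24. With both shares taken of all reads it was -0.45 in cluster 1, -0.35 in clusters 2 and 3 and 0.04 in cluster 6. With the nuclear share of reads outside the mitochondrial genome it was -0.33, -0.25, -0.22 and 0.18 in clusters 1, 2, 3 and 6. By rank, both shares of all reads had a Spearman correlation of -0.25 over all cells. It was -0.28 in block 1 and -0.07 in block 2, and ranged from -0.39 in cluster 1 to 0.03 in cluster 5. Depth correlated at Pearson 0.15 with the nuclear and -0.25 with the mitochondrial log2 share. The mitochondrial protein share ran with that of the mitochondrial ribosomal RNA at 0.72. The nuclear share of a cell ranged from 0.145% to 4.34% and the mitochondrial share from 0.0645% to 9.39%, with medians of 1.39% and 1.90%.

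Other mitochondrial genes were set beside the subunits through lists of related function. In cluster 6 over cluster 1, 37 of 40 measured assembly factors outside the symbol rule were higher with a median log2 ratio of 0.79, as were 77 of 77 mitochondrial ribosomal proteins with a median of 1.06, where 48.7% of all genes were. Carriers and pores of the mitochondrial membranes had 17 of 20 higher (median 0.87), electron carriers and complex partners 13 of 13 (1.14), factors of mitochondrial transcription and RNA handling 23 of 29 (0.88) and the tricarboxylic acid cycle 20 of 26 (0.70). Fastkd2, a mitochondrial RNA-binding protein, was at 116.97 CPM in cluster 6 and 24.6 in cluster 1, and Lrpprc, which stabilises mitochondrial messenger RNA, at 132.7 and 56.3. The 17 measured regulators, among them Mycn and Pprc1, had 8 higher and a median of -0.07. Glycolysis genes had 13 of 18 higher with a median of 0.59, while the glucose transporter gene Slc2a1 was at 572 CPM in cluster 6 and 3282 in cluster 1.

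Between treatments the same lists had medians from -0.04 to 0.19, and their counts of higher members stand beside 52.2% of all measured genes, 51.2% in block 1 and 52.4% in block 2. Electron carriers and complex partners stood at 0.19 with 11 of 13 higher, as in each block, and among them Higd1a, a complex IV partner, was at 29.5 CPM in Ctrl and 39.9 in treated cells, with 6 of 6 runs higher. The assembly factors stood at 0.06 with 26 of 40 higher, but the blocks ran opposite ways, with 35 of 40 higher and a median of 0.12 in block 1 and 14 of 40 and -0.06 in block 2. Their member Tmem186, a complex I assembly factor, was at 17.6 and 30.7 CPM and higher in 6 of 6 runs. Mitochondrial ribosomal proteins stood at 0.05 with 52 of 77 higher. In block 1 58 of 77 were higher and in block 2 39 of 77. The tricarboxylic acid cycle stood at 0.04, and citrate synthase, Cs, had a log2 ratio of 0.36, with 6 of 6 runs higher. Glycolysis stood at 0.11 with 14 of 18 higher, regulators at 0.03, carriers and pores at 0.08, and transcription and RNA handling at -0.04 with 12 of 29 higher. Mycn, a growth regulator, was at 77.8 CPM in Ctrl and 142.4 in treated cells, higher in 6 of 6 runs.

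The 3 X-linked subunits were read apart because of the sex makeup of the blocks. Ndufa1 stood at 29.1 CPM in Ctrl and 29.3 in treated cells, Cox7b at 101.99 and 112.5, and the ratio for Ndufb11 was -0.04 on the log2 scale. The log2 ratios of Ndufa1, Ndufb11 and Cox7b were 0.01, -0.13 and 0.15 in block 1, where treated cells were mostly Y-positive, and 0.04, 0.14 and 0.11 in block 2, where treated cells were Xist-positive. The 9 factor genes of the symbol rule had 7 higher in treated cells, where 52.2% of all genes were, and a median log2 ratio of 0.08. In block 1 their median was 0.25 with 7 higher, and in block 2 it was -0.03 with 4 higher. Of the 11 pseudogenes 8 were measured, and 5 of these had the higher value under treatment (median 0.04).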

How the data were processed

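Per the labels' protocols, sorted cells were lysed, cDNA was amplified by Smart-seq2 and Nextera XT libraries were sequenced. The deposited table holds raw counts of reads per gene and cell, which the authors did not normalise. Alignment tool GSNAP, counting tool HTSeq 0.6.0 and genome build mm10 are named in the submitters' processing notes. The annotation release, counting settings and cell filters were not stated in the sources used here.

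All 483 cells were kept (239 Ctrl and 244 treated, with 176 and 178 in block 1), and doublets were not called. Clusters 1 and 2 held 183 and 145 cells. Columns of no sample numbered 0. Symbols, positions and transcript lengths came from GENCODE M21, which is on mm10, and 849 of 46078 identifiers had no symbol. Counts were summed over the cells of a group and divided by the group's total (CPM). Ratios are log2 with 1 CPM added. Intervals are exact Poisson intervals at 95% that cover counting error only, and reads without molecular identifiers are not independent molecules. As each treatment was 1 sample, no test was run. A cell was Xist-positive or Y-positive from 10 reads of that kind and fewer of the other. Copies were found with BLAST+ 2.17.0, and Python 3.11.15, pandas 2.3.3 and scipy 1.17.1 did the rest. The ratio and call code was tested on simulated data.

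Named were all mitochondrial genes; the 8 subunits with the largest difference in mean log2 each way, among those of at least 10% of cells whose mean log2 difference had 1 direction in both blocks and at least 5 of 6 runs, shared by summed CPM; the 8 with the widest range over clusters; the highest and lowest per kb in each complex; isoforms; X-linked subunits; and from each list the members with the largest difference. The members, lists and rules were chosen with earlier results of these data known. Other denominators, scalings, weightings, pseudocounts, filters or subsets of cells were tried for the treatment ratios, the shares by cluster, the ratio by block and the relation over cells. Beyond splits by block or treatment, no alternative was run for the gene counts between clusters, the ratio of mt-Co1 to mt-Cytb, the lists, the motifs or the copies. Promoter windows of 16 subunit genes are not used here. The values of 1 subunit gene are not reported here.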

Additional observations from a re-analysis of the deposited data

Results flagged for a closer look

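Atp5g1 ran one way in the runs of block 1 and the other way in those of block 2. Its log2 ratio of treated over Ctrl was 0.38 in block 1, with 4 of 4 runs higher, and -0.08 in block 2, with 2 of 2 runs lower. Uqcrq had the same pattern, at 0.25 in block 1 and -0.04 in block 2. Cox7a2l was reversed, at -0.16 in block 1 and 0.21 in block 2. The differences between blocks were not tested. Treated cells of block 1 were mostly Y-positive and those of block 2 Xist-positive, and the part of this was not tested.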

How the results depend on the processing

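The median log2 ratio of the nuclear subunits, 0.08, ranged from 0.05 to 0.18 over 24 alternatives, and from 0.05 to 0.12 without each run in turn. The count of subunits past 1.2-fold, 3, moved more. It was 0 with median-of-ratios scaling, 0 with a pseudocount of 10 CPM and 0 in cells with at least 300000 reads. It was 11 with each cell weighted equally, 24 for the difference in mean log2, 12 after thinning to 100000 reads, 5 in block 1, 9 in block 2, 7 in clusters 1 to 3, 7 in Y-positive cells of block 1, 26 in Xist-positive cells of block 2 and 6 over all genes of the symbol rule. Without 1 run it ranged from 1 (without run 3) to 7 (without run 2 or 5). These counts of subunits take both directions. Of all measured genes 32.3% were past 1.2-fold either way over all cells, 36.7% in block 1 and 52.5% in block 2. In both blocks the subunits thus passed it less often than genes in general. The share of all genes was not counted for the other settings, so a larger count there is not by itself a larger difference of the subunits. The summed mitochondrial ratio of -0.06 was 0.17 in Xist-positive cells of block 2, and -0.08 to 0.01 without 1 run. Of the 3 named genes past 1.2-fold, Ndufa8 changed sign, to -0.031 in Xist-positive cells of block 2. Over all 49 named genes, most of them near 0, 12.02% of 882 alternative values had the opposite sign, in 32 genes, and 36 moved by more than the SD between runs without a change of a called sign. With mitochondrial genes left out of the total, the nuclear share was 1.38% in cluster 1, 1.52% in cluster 2, 1.70% in cluster 4, 1.42% in cluster 5 and 2.29% in cluster 6. It was 1.45% in block 2 of cluster 2, 1.67% and 1.49% in Ctrl and treated cells of cluster 4, and 1.27% and 1.38% in those of cluster 5, whose median over cells was 1.42%. The mitochondrial share was 1.59% in block 2 of cluster 1, 2.73% in block 1 of cluster 3 and 2.21% in Ctrl cells of cluster 6. The ratio of nuclear to mitochondrial reads was 0.61 in clusters 1 to 3 and 0.62 in Ctrl cells of block 1, and 0.80 and 0.85 in those of block 2. The Pearson correlation of both shares over cells ranged from -0.36 to -0.24, while the Spearman correlation was -0.07 in block 2. The cause of these shifts was not tested. No paired analysis was possible because each treatment was 1 sample and replicate numbers only name cells. The subsets behind the correlation, the sets without copied genes and the marker sums without 1 cell were chosen after seeing the data.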
